A study of Rattus norvegicus with 16 samples.

Results

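The constitutive proteasome genes are taken here as every gene whose name on the array begins with Psma, Psmb, Psmc or Psmd and a digit, without the immunoproteasome subunits Psmb8, Psmb9 and Psmb10. They numbered 38 of 34742 gene names and were read by 44 of 45598 probes. Of these, 15 names belong to the core particle, 17 to the regulatory particle, and 6 were kept apart because their products are assembly chaperones (Psmd5, Psmd9 and Psmd10), subunits known from testis (Psma8) or thymus (Psmb11), or no proteasome subunit (Psmc3ip, a protein of meiotic recombination). Total RNA from kidney cortex of male Jcl:SD rats, a Sprague-Dawley stock, was read on 16 one-colour Agilent arrays, 8 from BRCA1+/- rats, heterozygous for a DNA repair gene, and 8 from wild-type rats. In each genotype there were 3 arrays after 1 week and 3 after 3 weeks of Fe-NTA, and 2 of control cortex whose age and vehicle are not given in the sources used here. Fe-NTA, short for ferric nitrilotriacetate, keeps iron in solution, is filtered into the renal tubule and drives iron-catalysed oxidation there. Intraperitoneal injections began at 4 weeks of age, 5 a week. In week 1 the opening 2 carried 5 mg of iron per kg and the other 3 carried 7 mg, later injections carried 10 mg, and cortex was taken 48 h after the final one. Age, dose and time therefore cannot be told apart, and the labels do not say that the arrays of a group come from separate rats, so p-values measure the spread between arrays.

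The proteasome is the protease that removes ubiquitin-tagged and many damaged proteins. Its core particle is a barrel of alpha rings, which form the gate, and beta rings, in which the subunits encoded by Psmb5, Psmb6 and Psmb7 carry the chymotrypsin-like, caspase-like and trypsin-like active sites. The regulatory particle caps the barrel. Its base holds the ATPase ring (Psmc genes) with the scaffold and ubiquitin receptor subunits Psmd1, Psmd2 and Psmd4, and its lid holds the deubiquitinase Psmd14 and its partners. Subunit genes are known to be induced together by the transcription factor NRF1 (gene Nfe2l1) when proteasome activity is short, and in mouse cells some of them by NRF2 (Nfe2l2) under oxidative stress. In inflamed tissue Psmb8, Psmb9 and Psmb10 can take the place of Psmb5, Psmb6 and Psmb7.

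Array brightness varied: the 75th percentile of the processed signal was 20.1 to 78.5 intensity units, both wild-type controls (20.1 and 25.0) were the dimmest arrays, and 32.7% to 60.4% of probes were well above background. Levels below are log2 of the signal relative to that percentile. Wild-type 1-week replicate 3 stood apart: its correlation with the other arrays of its group over all genes tested was 0.905 and 0.908, against 0.964 to 0.981 for the other pairs of arrays of 1 group, and 27 of 36 members tested lay over 0.5 from the mean of the other 2 arrays, 9 above and 18 below. Without it the wild-type 1-week estimate changed sign in 7 of 36 members, and the members' median log2 change there was 0.17, against 0.07 with it. The summed level of 10 proximal tubule markers, in units of the 75th percentile, was 514 to 955 at 1 week and 633 to 1429 at 3 weeks in BRCA1+/- rats, against 2758 to 3754 in BRCA1+/- controls, and 90.3 to 338 at 1 week and 787 to 1416 at 3 weeks in wild type, against 3520.4 to 3566 in wild-type controls. That of 6 macrophage markers was 20.7 to 32.6 at 1 week and 35.5 to 68.9 at 3 weeks in BRCA1+/- rats, against 7.95 to 9.34 in BRCA1+/- controls, and 21.4 to 52.7 and 38.4 to 59.6 in wild type, against 7.64 to 9.85 in wild-type controls. Genes of cycling cells (5 genes) summed to 5.30 to 17.0 in BRCA1+/- at 1 week, against 1.32 to 1.61 in BRCA1+/- controls, and to 17.6 to 24.3 in wild type, against 1.54 to 1.65 in wild-type controls. Such sums follow the brightest genes of a list. The median log2 level of the proximal tubule markers was 4.80 to 5.74 at 1 week and 5.25 to 6.30 at 3 weeks in BRCA1+/- rats, against 6.54 and 7.05 in BRCA1+/- controls. In wild type it was 3.06 to 4.45 and 6.01 to 6.31, against 6.87 and 7.26 in wild-type controls. The part of these shifts in the proteasome values was not tested, and in bulk tissue fewer cells of a type and less RNA per cell cannot be told apart. Brca1 was read by 1 probe that was well above background on all 12 treated arrays but on 1 of 4 control arrays, and by a second probe that was so on 0 arrays. It was not called between genotypes in any condition, and the sources used here do not say whether either probe lies in the mutated stretch, so it does not check the labels.

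Of 36 member genes tested (15 core, 17 regulatory and 4 kept apart), limma called 0 at 1 week and 0 at 3 weeks in BRCA1+/- rats, where 7.48% and 15.9% of all 16007 genes tested changed. In wild-type rats it called 1 at 1 week, where 27.1% of all genes changed, and 2 at 3 weeks, where 14.2% did. The count of members with an unadjusted p under 0.05 was 2 and 2 in BRCA1+/- and 6 and 4 in wild type. Each genotype's 1-week and 3-week comparisons share its 2 control arrays. The 1-week call was Psmd8, higher than controls, and the 3-week calls were Psmb1 and Psmd12, lower than controls. Over all genes 12.8% were called higher in wild type at 1 week and 5.52% lower at 3 weeks. How the members compare with the background depends on the background correction: with normexp, which models the background of each spot, limma called 5 members (13.9%) at 1 week in wild type, against 10.6% of all genes, and 0 at 3 weeks, against 5.15%. The signs of the estimates depend on it too: at 3 weeks in wild type 24 of 36 members were below 0, and 9 with normexp and 16 with quantile normalization were.

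**Figure D1:**
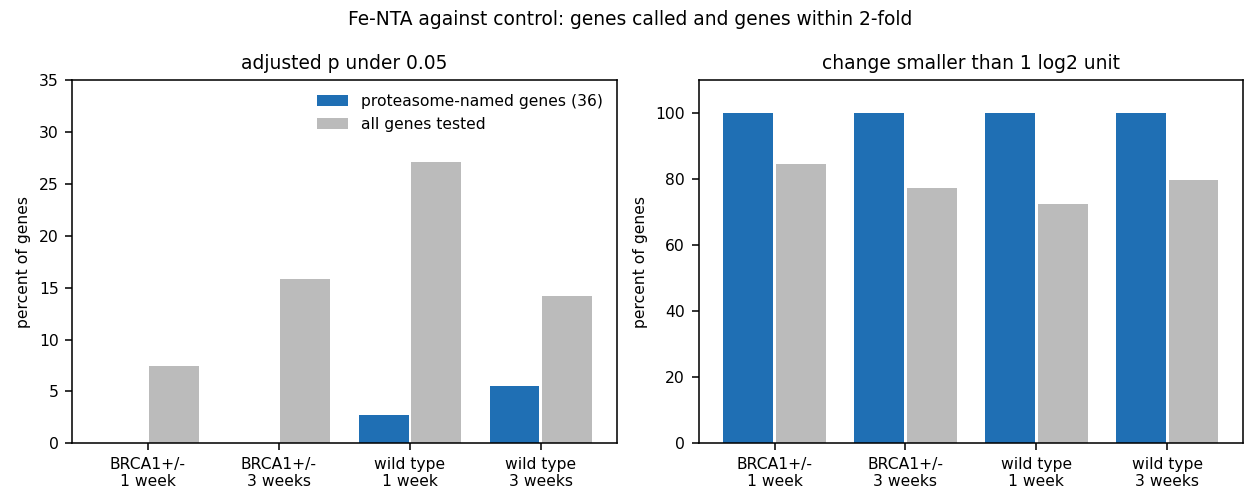
Share of genes called changed by limma (adjusted p under 0.05, percent, vertical axis) in each comparison of Fe-NTA with control, for the 36 proteasome members tested and for all 16007 genes tested. Members called were 0, 0, 1 and 2 of 36 in BRCA1+/- at 1 and 3 weeks and wild type at 1 and 3 weeks, against 7.48%, 15.9%, 27.1% and 14.2% of all genes.

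Sizes of change are given for the 34 members tested whose controls were measured, since Psmd5 and Psmc3ip were not well above background on any control array. The estimated log2 change of these 34 was under 1 in size (2-fold) in each of the 4 comparisons, as was that of 84.6% and 77.5% of all genes at 1 and 3 weeks in BRCA1+/- and 72.6% and 79.8% in wild type. Their median absolute log2 change was 0.14 and 0.30 in BRCA1+/- and 0.31 and 0.24 in wild type, beside 0.40, 0.55, 0.57 and 0.48 over all genes in the same order. A missed threshold does not show that a level was unchanged. The 95% interval of the log2 change lay wholly within 1 either way for 27 and 19 of them in BRCA1+/- at 1 and 3 weeks and 21 and 24 in wild type. That is 79.4%, 55.9%, 61.8% and 70.6%, against 33.5%, 25.3%, 24.6% and 28.2% of all genes. The other members' intervals allow a change of 2-fold or more. Over all 16 arrays the SD of the log2 level of the 34 members was 0.34 (median, from 0.18 for Psmc1 to 0.49 for Psmd14), beside 0.50 over all genes. The values over all genes were not limited to genes with measured controls, so the sets differ in this. Over all 36 members tested the shares were 75%, 52.8%, 58.3% and 66.7% in the same order. Their median absolute log2 changes were 0.16, 0.31, 0.31 and 0.24, and their median SD was 0.34. Core and regulatory genes were brighter than most genes. Their median level on an array was 2.69 to 3.42 and 2.61 to 3.39, against 0.42 to 0.58 over all genes tested. The part of brightness in these comparisons with all genes was not tested.

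**Figure D2:**
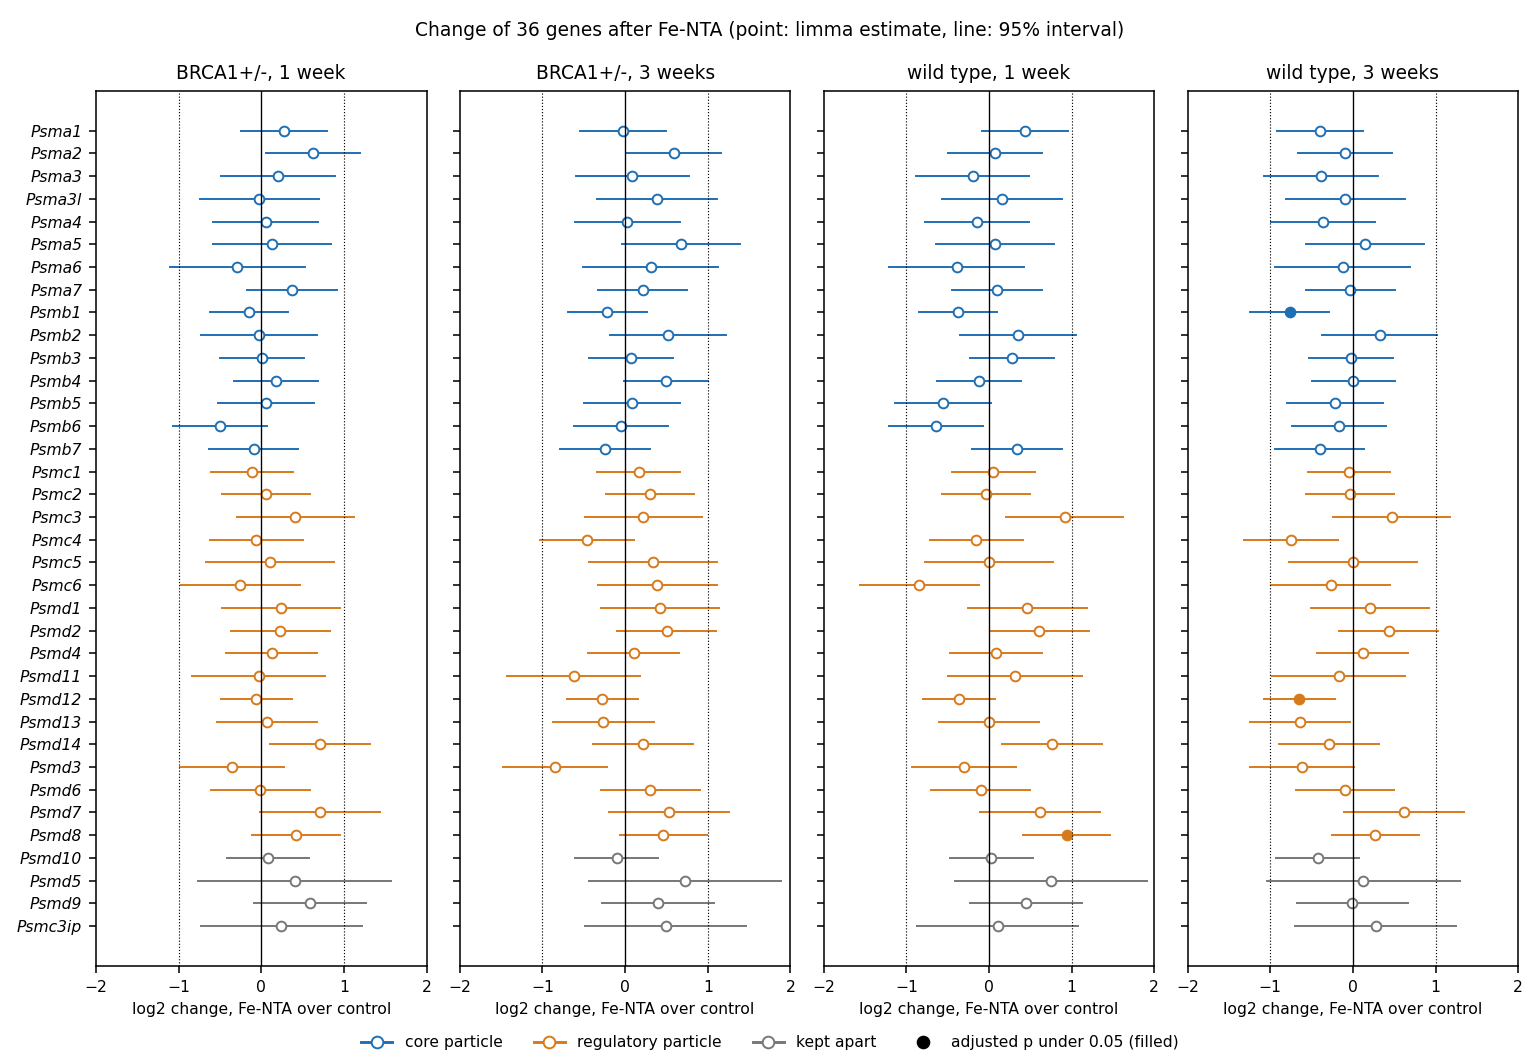
Log2 fold change of each of the 36 members tested (horizontal position, with 95% interval from limma) in the 4 comparisons of Fe-NTA with control, ordered by role in the particle. All points lie within 1 of zero, the intervals reach a median of 0.60 to either side, and the points of Psmd5 and Psmc3ip rest on control signals below detection.

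The probes that carry the values described below are given here because each gene's level rests on a single probe of 60 bases. They are those of the 3 catalytic subunits, of the 5 genes that limma called in any comparison, and the dimmer of the 2 Psmd11 probes, which gave other calls than its partner. Each is printed from 5′ to 3′ as the array files give it.
Psmb5: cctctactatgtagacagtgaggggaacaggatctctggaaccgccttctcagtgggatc
Psmb6: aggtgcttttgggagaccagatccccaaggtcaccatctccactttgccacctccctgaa
Psmb7: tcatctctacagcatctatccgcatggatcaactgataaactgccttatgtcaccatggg
Psmb1: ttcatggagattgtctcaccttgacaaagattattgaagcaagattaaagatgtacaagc
Psma1: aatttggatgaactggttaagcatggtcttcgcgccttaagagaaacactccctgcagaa
Psmd8: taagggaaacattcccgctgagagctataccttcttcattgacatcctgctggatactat
Psmd12: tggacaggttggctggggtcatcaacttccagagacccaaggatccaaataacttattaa
Psmd14: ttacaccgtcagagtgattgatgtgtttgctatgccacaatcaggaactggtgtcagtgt
Psmd11, dimmer probe: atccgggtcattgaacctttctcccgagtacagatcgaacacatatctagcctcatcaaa

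Of the 3 catalytic subunits, 0 were called in any comparison with controls, and most of their estimates were below 0, except that with the normexp correction all 3 were above 0 at 3 weeks in wild type (Psmb5 0.38, Psmb6 0.53 and Psmb7 0.04). Psmb5, the chymotrypsin-like subunit, read 3.48, 3.87 and 4.26 at 1 week and 3.94, 4.04 and 3.70 at 3 weeks in BRCA1+/- rats, against 3.81 and 3.82 in BRCA1+/- controls. It read 3.76, 3.39 and 3.18 at 1 week and 4.00, 3.77 and 3.59 at 3 weeks in wild-type rats, against 3.89 and 4.11 in wild-type controls. The BRCA1+/- treated arrays lay on both sides of their controls, whereas every wild-type 1-week array lay below its controls. The log2 change there was -0.56 ± 0.27 (± SE throughout; limma adjusted p = 0.150), and -0.42 without replicate 3. Psmb6, the caspase-like subunit, read 5.35, 4.78 and 4.97 at 1 week and 5.41, 5.48 and 5.58 at 3 weeks in BRCA1+/- rats, against 5.61 and 5.46 in BRCA1+/- controls. It read 5.37, 5.18 and 4.53 at 1 week and 5.54, 5.44 and 5.52 at 3 weeks in wild-type rats, against 5.58 and 5.76 in wild-type controls. At 1 week all treated arrays of both genotypes were below their controls. The log2 change was -0.50 ± 0.27 in BRCA1+/- (limma adjusted p = 0.289) and -0.64 ± 0.27 in wild type (limma adjusted p = 0.0916), neither past the threshold, and at 3 weeks it was -0.04 in BRCA1+/- and -0.17 in wild type. A Psmb6-like gene is also on the array, and the RefSeq gene table names pseudogenes after 15 of the 38 members, so signal shared with such copies makes levels uncertain. The lowest level of Psmb6 was that of wild-type replicate 3, and without that array the wild-type change was -0.39 (limma adjusted p = 0.171). Psmb7, the trypsin-like subunit, read 1.66, 1.86 and 1.83 at 1 week and 1.58, 1.73 and 1.57 at 3 weeks in BRCA1+/- rats, against 1.92 and 1.83 in BRCA1+/- controls. It read 2.24, 2.03 and 2.84 at 1 week and 1.79, 1.57 and 1.52 at 3 weeks in wild-type rats, against 1.92 and 2.14 in wild-type controls. The 3-week arrays were below the controls in both genotypes, with changes of -0.24 ± 0.25 in BRCA1+/- and -0.40 ± 0.25 in wild type (limma adjusted p = 0.511 and 0.317), and wild-type 1-week replicate 3 was the highest of all arrays, so that the 1-week change of 0.34 was 0.10 without it.

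The other beta subunits, which build the ring and have no active site, held 1 of the members called. Psmb1 read 2.70, 2.94 and 3.02 at 1 week and 2.85, 2.90 and 2.71 at 3 weeks in BRCA1+/- rats, against 3.00 and 3.06 in BRCA1+/- controls. It read 2.75, 3.08 and 3.24 at 1 week and 2.68, 2.60 and 2.61 at 3 weeks in wild-type rats, against 3.38 and 3.42 in wild-type controls. Psmb1 was called lower at 3 weeks in wild type: its log2 change was -0.77 ± 0.22 (limma adjusted p = 0.0325), all 3 treated arrays lay below both controls, and the call was lost when any 1 of the 5 arrays was left out (adjusted p 0.0674 to 0.183). It was also lost with the normexp correction, where the change was -0.13. In BRCA1+/- rats its change was -0.15 at 1 week and -0.22 at 3 weeks. Psmb4 read 4.31, 3.99 and 4.28 at 1 week and 4.43, 4.56 and 4.55 at 3 weeks in BRCA1+/- rats, against 3.98 and 4.05 in BRCA1+/- controls. Every BRCA1+/- 3-week array was above its controls, with a log2 change of 0.50 ± 0.24 (limma adjusted p = 0.155), and the change in wild type was -0.12 at 1 week and 0.0065 at 3 weeks. The log2 changes of Psmb2 were -0.03 and 0.52 in BRCA1+/- and 0.35 and 0.32 in wild type at 1 and 3 weeks. Those of Psmb3, whose probe may also read a near-identical copy, were 0.01 and 0.07 in BRCA1+/- and 0.28 and -0.03 in wild type. Without wild-type 1-week replicate 3 the 1-week wild-type changes were 0.06 for Psmb4, 0.55 for Psmb2 and 0.11 for Psmb3.

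Among the alpha subunits, which form the gated outer rings, 0 of 8 names were called in any comparison with controls, with Psma3l counted apart from Psma3. Their median log2 change was 0.17 and 0.26 in BRCA1+/- and 0.07 and -0.11 in wild type at 1 and 3 weeks. In wild type it was 0.20 at 1 week without replicate 3, and 0.37 at 3 weeks with the normexp correction. Psma1 read 2.71, 2.58 and 3.34 at 1 week and 2.03, 1.95 and 2.13 at 3 weeks in wild-type rats, against 2.39 and 2.48 in wild-type controls. All 3 wild-type 1-week arrays were above, and all 3 of the 3-week arrays below, the controls, and the changes of 0.44 ± 0.24 and -0.40 ± 0.24 did not pass the test (limma adjusted p = 0.210 and 0.297). The 1-week change was 0.21 without replicate 3 (limma adjusted p = 0.401), and the 3-week change was 0.11 with normexp. Psma1 read 2.33, 2.52 and 2.41 at 1 week and 2.1, 2.17 and 2.11 at 3 weeks in BRCA1+/- rats, against 2.25 and 2.05 in BRCA1+/- controls. Psma2 was higher than controls on every treated BRCA1+/- array: it read 0.90, 0.37 and 1.05 at 1 week and 0.66, 0.79 and 0.76 at 3 weeks in BRCA1+/- rats, against 0.05 and 0.24 in BRCA1+/- controls, a log2 change of 0.63 ± 0.27 at 1 week and 0.59 ± 0.27 at 3 weeks (limma adjusted p = 0.167 and 0.135). It read 0.72, 0.89 and 0.15 at 1 week and 0.47, 0.43 and 0.36 at 3 weeks in wild-type rats, against 0.50 and 0.53 in wild-type controls, on both sides of the controls at 1 week and below them at 3 weeks. Psma5 read 4.19, 3.23 and 3.68 at 1 week and 4.21, 4.19 and 4.35 at 3 weeks in BRCA1+/- rats, against 3.57 and 3.57 in BRCA1+/- controls. All 3 of these 3-week arrays were above the controls, with a log2 change of 0.68 ± 0.33 (limma adjusted p = 0.167). Wild-type Psma5 read 4.19, 4.05 and 3.08 at 1 week and 4.13, 3.76 and 3.67 at 3 weeks in wild-type rats, against 3.68 and 3.73 in wild-type controls. The 1-week wild-type changes with and without replicate 3 were 0.08 and 0.29 for Psma2 and 0.07 and 0.42 for Psma5. Psma7 read 2.61, 2.85 and 2.98 at 1 week and 2.43, 3.06 and 2.48 at 3 weeks in BRCA1+/- rats, against 2.22 and 2.67 in BRCA1+/- controls, and its log2 change of 0.37 ± 0.25 at 1 week did not pass the test (limma adjusted p = 0.421). In wild type, where its groups overlapped at 1 week, it had changes of 0.10 at 1 week and -0.03 at 3 weeks, with levels of 2.96, 2.84 and 2.79 at 1 week and 2.89, 2.69 and 2.64 at 3 weeks in wild-type rats, against 2.71 and 2.82 in wild-type controls. The remaining alpha subunits, Psma3, Psma3l, Psma4 and Psma6, had log2 changes of -0.39 to 0.39 over the 4 comparisons, and at 1 week in wild type without replicate 3 they were 0.17, 0.45, 0.19 and 0.11. Psma3l is given in the RefSeq gene table as a synonym of Psma3, and since near-identical copies may share signal the values of Psma3 and Psma3l are uncertain.

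In the base of the regulatory particle, whose ATPases unfold substrates and thread them into the core, 0 of 6 ATPase genes were called in any comparison with controls. Psmc3 read 2.06, 1.5 and 2.80 at 1 week and 1.58, 1.71 and 1.73 at 3 weeks in wild-type rats, against 0.96 and 1.44 in wild-type controls. It was higher than both controls on all 3 of the 1-week arrays, with a log2 change of 0.92 ± 0.33 (limma adjusted p = 0.0530), and of 0.58 without replicate 3, which holds its highest level. Psmc3 read 1.37, 1.72 and 1.82 at 1 week and 1.25, 1.72 and 1.38 at 3 weeks in BRCA1+/- rats, against 1.43 and 1.03 in BRCA1+/- controls. Psmc4 read 2.16, 1.68 and 2.34 at 1 week and 1.27, 1.54 and 1.59 at 3 weeks in wild-type rats, against 2.18 and 2.25 in wild-type controls, so that the 3-week arrays lay below the controls, with a log2 change of -0.75 ± 0.27 (limma adjusted p = 0.0736). Psmc4 read 1.36, 2.01 and 1.90 at 1 week and 1.25, 1.5 and 1.30 at 3 weeks in BRCA1+/- rats, against 1.88 and 1.75 in BRCA1+/- controls, where all 3 of the 3-week arrays were below the controls. Psmc6 had a log2 change of -0.84 ± 0.34 in wild type at 1 week (limma adjusted p = 0.0779), and of -0.43 without replicate 3. Psmc1, Psmc2 and Psmc5 had log2 changes of -0.11 to 0.33 over the 4 comparisons, and of 0.15, 0.14 and 0.44 at 1 week in wild type without replicate 3.

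With the scaling used and all arrays, the 3 non-ATPase base subunits had the highest median log2 change of the roles within the particle. It was 0.23 and 0.42 in BRCA1+/- and 0.47 and 0.21 in wild type at 1 and 3 weeks, with 0 called. This order rests on medians of few genes, and medians of roles depend on the scaling. Psmd2, the scaffold that docks shuttle factors and the deubiquitinase Usp14, read 4.91, 4.26 and 4.39 at 1 week and 4.74, 4.63 and 5.01 at 3 weeks in BRCA1+/- rats, against 4.38 and 4.20 in BRCA1+/- controls. It read 4.87, 4.88 and 4.20 at 1 week and 4.59, 4.28 and 4.56 at 3 weeks in wild-type rats, against 3.89 and 4.19 in wild-type controls. Every wild-type treated array and every BRCA1+/- 3-week array was above its controls, with log2 changes of 0.50 ± 0.28 at 3 weeks in BRCA1+/- and 0.61 ± 0.28 at 1 week in wild type (limma adjusted p = 0.220 and 0.126). Without wild-type 1-week replicate 3 the 1-week change of Psmd2 was 0.84 and passed the threshold (limma adjusted p = 0.0188), as did that of the other scaffold, Psmd1 (0.81, limma adjusted p = 0.0344), so that 3 members with Psmd8 were then called, against 33.4% of all genes. With all arrays the log2 changes of Psmd1 were 0.24 and 0.42 in BRCA1+/- and 0.47 and 0.21 in wild type. Psmd4, which holds ubiquitin chains, had the smallest estimates of the 3. It read 3.66, 3.75 and 3.80 at 1 week and 3.73, 3.86 and 3.57 at 3 weeks in BRCA1+/- rats, against 3.77 and 3.46 in BRCA1+/- controls, and 3.87, 4.03 and 3.28 at 1 week and 3.55, 3.90 and 3.83 at 3 weeks in wild-type rats, against 3.50 and 3.79 in wild-type controls. Its groups overlapped in all 4 comparisons, and its changes were 0.13 and 0.10 in BRCA1+/- and 0.08 and 0.12 in wild type, with 95% intervals of -0.43 to 0.68 and -0.45 to 0.66 in BRCA1+/- at 1 and 3 weeks and -0.47 to 0.64 and -0.43 to 0.67 in wild type. Without wild-type 1-week replicate 3 the 1-week change of Psmd4 was 0.31.

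The lid held the only member called at 1 week. Psmd8, which in yeast is the last subunit to join the lid, read 3.02, 2.65 and 3.34 at 1 week and 2.43, 2.34 and 2.24 at 3 weeks in wild-type rats, against 1.83 and 2.30 in wild-type controls. All 3 of the 1-week arrays were above both controls: the log2 change was 0.94 ± 0.25 (limma adjusted p = 0.0110), and 0.77 without replicate 3 (limma adjusted p = 0.0147). The call was lost without control replicate 1, the lower of its controls, where the change was 0.70 (limma adjusted p = 0.149). Psmd8 read 2.69, 2.42 and 2.46 at 1 week and 2.65, 2.55 and 2.5 at 3 weeks in BRCA1+/- rats, against 2.06 and 2.14 in BRCA1+/- controls, so that every treated array was above the controls, with log2 changes of 0.42 ± 0.25 at 1 week and 0.46 ± 0.25 at 3 weeks, without passing the threshold (limma adjusted p = 0.343 and 0.201). The array also carries a probe described as a Psmd8-like gene, and since near-identical copies may share signal its value is uncertain.

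Psmd12, a structural subunit of the lid, was the other member called at 3 weeks in wild type, and the array carries a probe described as a Psmd12-like gene too. It read 3.46, 3.38 and 3.35 at 1 week and 3.05, 3.14 and 3.12 at 3 weeks in wild-type rats, against 3.64 and 3.87 in wild-type controls. Treated arrays were below both controls at both times, with log2 changes of -0.36 ± 0.20 at 1 week (limma adjusted p = 0.208) and -0.65 ± 0.20 at 3 weeks (limma adjusted p = 0.0435). That call too was lost when any 1 of the 5 arrays was left out, with adjusted p between 0.0955 and 0.290, it was lost with slide as a block, and under the normexp background correction the change was 0.011. It read 3.31, 3.28 and 3.32 at 1 week and 3.05, 3.15 and 3.06 at 3 weeks in BRCA1+/- rats, against 3.41 and 3.31 in BRCA1+/- controls, with the 3-week arrays below the controls and a log2 change of -0.27 ± 0.20 (limma adjusted p = 0.349).

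Psmd14, the deubiquitinase that strips ubiquitin from substrates, read 1.89, 2.27 and 2.47 at 1 week and 1.51, 1.86 and 1.79 at 3 weeks in BRCA1+/- rats, against 1.61 and 1.40 in BRCA1+/- controls. It read 2.81, 2.27 and 3.21 at 1 week and 1.74, 1.74 and 1.66 at 3 weeks in wild-type rats, against 1.85 and 2.16 in wild-type controls. All 1-week arrays of both genotypes were above their controls, with log2 changes of 0.71 ± 0.28 in BRCA1+/- and 0.76 ± 0.28 in wild type, and neither passed the threshold (limma adjusted p = 0.146 and 0.0602). The wild-type change passed under 4 of the alternatives, among them the normexp correction (0.77, limma adjusted p = 0.0167). Psmd7, its inactive partner in the lid, read 1.39, 1.42 and 1.58 at 1 week and 0.69, 1.88 and 1.31 at 3 weeks in BRCA1+/- rats, against 0.55 and 0.96 in BRCA1+/- controls, and its log2 changes were 0.71 and 0.53 in BRCA1+/- and 0.61 and 0.62 in wild type at 1 and 3 weeks. The BRCA1+/- 1-week arrays of Psmd7 did not overlap their controls (limma adjusted p = 0.232). Psmd3 read 0.15, 0.57 and 0.89 at 1 week and 0.27, 0.10 and -0.23 at 3 weeks in BRCA1+/- rats, against 1.13 and 0.65 in BRCA1+/- controls, so that all 3 of the 3-week arrays lay below the controls. The log2 change of -0.84 ± 0.29 was the lowest of the 36 members in BRCA1+/- rats and did not pass the test (limma adjusted p = 0.0639). In wild type its log2 change was -0.30 at 1 week and -0.61 at 3 weeks. Psmd13 read 0.78, 0.77 and 1.54 at 1 week and 0.44, 0.45 and 0.28 at 3 weeks in wild-type rats, against 0.83 and 1.24 in wild-type controls, a log2 change of -0.65 ± 0.28 at 3 weeks (limma adjusted p = 0.142). Its BRCA1+/- groups overlapped, with levels of 0.36, 0.60 and 0.65 at 1 week and -0.12, 0.54 and 0.21 at 3 weeks in BRCA1+/- rats, against 0.48 and 0.46 in BRCA1+/- controls. The log2 changes of Psmd6 were -0.01 and 0.30 in BRCA1+/- and -0.10 and -0.09 in wild type. Without wild-type 1-week replicate 3 the 1-week wild-type changes were 0.54 for Psmd14, 0.81 for Psmd7, -0.48 for Psmd3, -0.26 for Psmd13 and 0.11 for Psmd6.

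**Figure D3:**
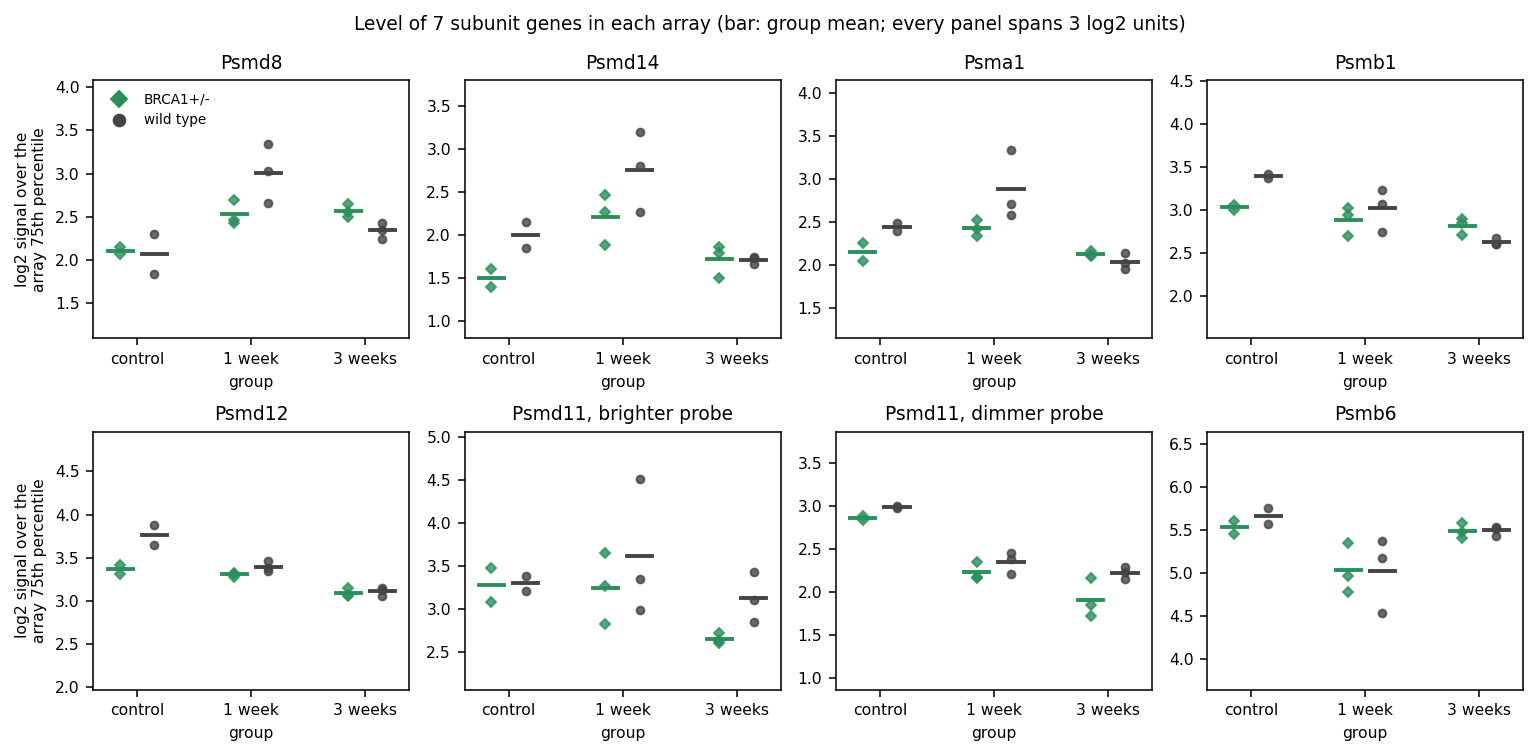
Level of the 5 members called in any comparison, of both Psmd11 probes and of the catalytic subunit Psmb6 on each array (log2 signal relative to the array's 75th percentile, vertical axis), by group, with the group mean as a bar. Psmd8 stands above its controls on all 12 treated arrays except for 1 wild-type 3-week array, which lay at 2.24 against a highest control of 2.30.

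Psmd11, the lid subunit that clamps the regulatory particle to the core, was read by 2 probes that differed. The brighter one, used for the gene, read 2.82, 3.27 and 3.65 at 1 week and 2.63, 2.72 and 2.61 at 3 weeks in BRCA1+/- rats, against 3.08 and 3.48 in BRCA1+/- controls. It read 2.99, 3.35 and 4.52 at 1 week and 3.43, 3.11 and 2.85 at 3 weeks in wild-type rats, against 3.39 and 3.22 in wild-type controls, with replicate 3 of the 1-week group the highest of the 16 arrays. Its changes were -0.03 and -0.62 in BRCA1+/- and 0.32 and -0.17 in wild type at 1 and 3 weeks, and it was not called. Without that array the 1-week wild-type change was -0.13. The dimmer probe, whose sequence is printed above, read 2.16, 2.35 and 2.17 at 1 week and 1.72, 2.16 and 1.84 at 3 weeks in BRCA1+/- rats, against 2.83 and 2.89 in BRCA1+/- controls, and 2.38, 2.20 and 2.45 at 1 week and 2.15, 2.23 and 2.29 at 3 weeks in wild type, against 3.00 and 2.98 in wild-type controls. With every probe tested on its own, a check chosen after seeing the data, the dimmer probe had log2 changes of -0.63 and -0.95 in BRCA1+/- and -0.65 and -0.77 in wild type (SE 0.22 each), and limma called the BRCA1+/- 3-week change (adjusted p = 0.0101) and both wild-type changes (adjusted p = 0.0384 and 0.0289), but not the BRCA1+/- 1-week change (adjusted p = 0.0934). The 2 probes also differed on wild-type 1-week replicate 3, which was highest by the brighter probe and close to the rest of its group by the dimmer one. Per the array files the dimmer probe starts at base 1398 of its transcript and the brighter one at base 2902, so they read different stretches of the message. Counted by probe, member genes with a called probe numbered 0 and 1 in BRCA1+/- at 1 and 3 weeks and 2 and 3 in wild type, beside 7.46%, 15.3%, 27.6% and 14.4% of all probes.

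In 3 other genes a second probe also passed the filter on dim signals. Psma7's changes by the probe used were 0.37 and 0.21 in BRCA1+/- and 0.10 and -0.03 in wild type, and by the second probe -0.30 and -0.81 in BRCA1+/- and -0.65 and -0.58 in wild type, lower in each comparison. Psmc1, an ATPase, gave -0.11 and 0.16 in BRCA1+/- and 0.05 and -0.05 in wild type by the probe used and 0.35, 0.44, 0.44 and 0.62 by the second one, in the same order. For Psmd10 the values were 0.08 and -0.10 in BRCA1+/- and 0.03 and -0.43 in wild type by the probe used and -0.19, -0.30, -0.22 and -0.90 by the second one. None of these 3 second probes was called in a comparison with controls, so in each of these genes the probe chosen moves the sign of some changes and no call.

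The genes kept apart held 0 calls in the comparisons with controls. The base assembly chaperones Psmd5, Psmd9 and Psmd10, which hold ATPase subunits until the base is built, included 2 with measured controls. The log2 changes of Psmd9 were 0.59 and 0.40 in BRCA1+/- and 0.45 and -0.0057 in wild type and those of Psmd10 0.08 and -0.10 in BRCA1+/- and 0.03 and -0.43 in wild type, beside medians of -0.03, 0.01, -0.02 and -0.02 over all genes. Psmd9 read -1.02, -0.73 and -0.81 at 1 week and -1.43, -0.60 and -1.11 at 3 weeks in BRCA1+/- rats, against -1.55 and -1.34 in BRCA1+/- controls, with the 1-week arrays above both controls. Psmd9 was dim, and both of these controls lay below the detection limit of -1.05 set as an alternative, so the size of its changes is uncertain. Psmd5 and Psmc3ip were well above background on 7 arrays each and on 0 arrays of both control groups, so their controls give only a bound and the changes drawn for them in the plot of fold changes are not read. Psma8 was well above background on 0 arrays, and the 2 probes of Psmb11 on 9 and 1 arrays, never on all arrays of a group, so these genes were not tested.

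Counts of members whose groups did not overlap, which is frequent for any gene in groups this small, were below the background in all 4 comparisons. At 1 and 3 weeks they were 7 and 15 of 36 in BRCA1+/-, where 44.9% and 61.0% of all genes did not overlap, and 11 and 18 in wild type, where 44.9% and 57.1% did not. Of the 18 in wild type at 3 weeks, 14 were lower than controls, and of the 15 in BRCA1+/- 6 were, beside 50.6% and 47.4% of the genes that did not overlap among all genes.

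Between 1 and 3 weeks limma called 0 members in BRCA1+/- rats, with 0 at an unadjusted p under 0.05, where 0.306% of all genes changed, and 2 in wild type, where 8.32% did and 7 members had an unadjusted p under 0.05. Both were lower at 3 weeks, as were 2.78% of all genes. Psmd14 fell by 1.05 ± 0.25 on the log2 scale (limma adjusted p = 0.0197) and the alpha subunit Psma1 fell by 0.84 ± 0.22 (limma adjusted p = 0.0283). In both genes the highest 1-week array was replicate 3. Without it the changes were -0.83 (limma adjusted p = 0.0467) and -0.61 (limma adjusted p = 0.0404). Each call was lost in 3 of 6 fits that left out 1 array. In BRCA1+/- rats the same change was -0.49 for Psmd14 and -0.30 for Psma1. Over the 36 members the median change from 1 to 3 weeks was 0.0031 in BRCA1+/- and -0.20 in wild type, beside 0.05 and 0.04 over all genes. The wild-type median was -0.04 with normexp and -0.30 without 1-week replicate 3, and the BRCA1+/- median was -0.12 with quantile normalization.

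Genotype comparisons called 0 of 36 members in each condition by limma, and the background was 0.562% of genes at 1 week, 0% at 3 weeks and 0% in controls. Members with an unadjusted p under 0.05 numbered 3, 0 and 0. The median difference of members, BRCA1+/- minus wild type, was -0.12 at 1 week, 0.10 at 3 weeks and -0.18 in controls. In controls 31 of 36 members were lower in BRCA1+/- rats, with differences from -0.56 to 0.24, beside 51.1% of all genes. Psmd5 and Psmc3ip are among those counted as lower, though neither was well above background on any control array. These directions depend on the scaling and on 1 array. With normexp the median was 0.27 in controls, where 8 of 36 were lower, and 0.03 at 1 week. Without wild-type 1-week replicate 3 it was -0.27 at 1 week. The controls of the genotypes did not overlap in 22 of 36 members (12 of 15 core and 9 of 17 regulatory names), where 43.8% of all genes did not overlap with 2 arrays against 2. Both wild-type controls were the dimmest arrays of the series, and the part of brightness in this difference was not tested. The interaction of genotype with treatment called 0 members at 1 week and 0 at 3 weeks (0 with an unadjusted p under 0.05 at either time, smallest limma adjusted p 0.789 and 0.977), against 0% of all genes at each time. At 3 weeks all 15 core names had a positive interaction term, with a median of 0.39 beside 0.02 over all genes, and these terms use the same 2 dim controls. With normexp 6 of 15 were positive and the median was -0.10.

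With the scaling used, core and regulatory particle genes had like medians after Fe-NTA. The median log2 change of the 15 core and 17 regulatory genes was 0.05 and 0.07 at 1 week in BRCA1+/- rats, 0.09 and 0.22 at 3 weeks, and in wild type 0.07 and 0.05 at 1 week and -0.12 and -0.05 at 3 weeks. Beside them the median over all genes was -0.03, 0.01, -0.02 and -0.02 in the same order. The core median minus the regulatory median was -0.01 and -0.13 in BRCA1+/- and 0.02 and -0.08 in wild type, none larger than the SD of 0.15 of that difference between arrays of 1 group. That SD is between single arrays, wild-type 1-week replicate 3 included, while the changes rest on groups of 2 or 3 arrays. At 3 weeks in wild type the gap was wider with normexp and with quantile normalization, as given below. Taken array by array against the mean of the same genotype's controls, wild-type 1-week replicate 3 had the widest gap: its core genes shifted by -0.43 and its regulatory genes by 0.05, while the other 2 arrays of that group had core shifts of 0.12 and 0.14 and regulatory shifts of 0.23 and 0.15. BRCA1+/- 3-week arrays had core shifts of 0.06, 0.23 and 0.05, with regulatory shifts of 0.0054, 0.34 and 0.34. These medians depend on scaling in both genotypes. With normexp the core and regulatory medians were 0.11 and 0.12 at 1 week and 0.20 and 0.23 at 3 weeks in BRCA1+/-, and 0.28 and 0.43 at 1 week and 0.38 and 0.54 at 3 weeks in wild type, so the wild-type sign at 3 weeks turns. With quantile normalization they were 0.19 and 0.26 at 1 week in BRCA1+/- and 0.01 and 0.18 at 3 weeks in wild type.

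**Figure D4:**
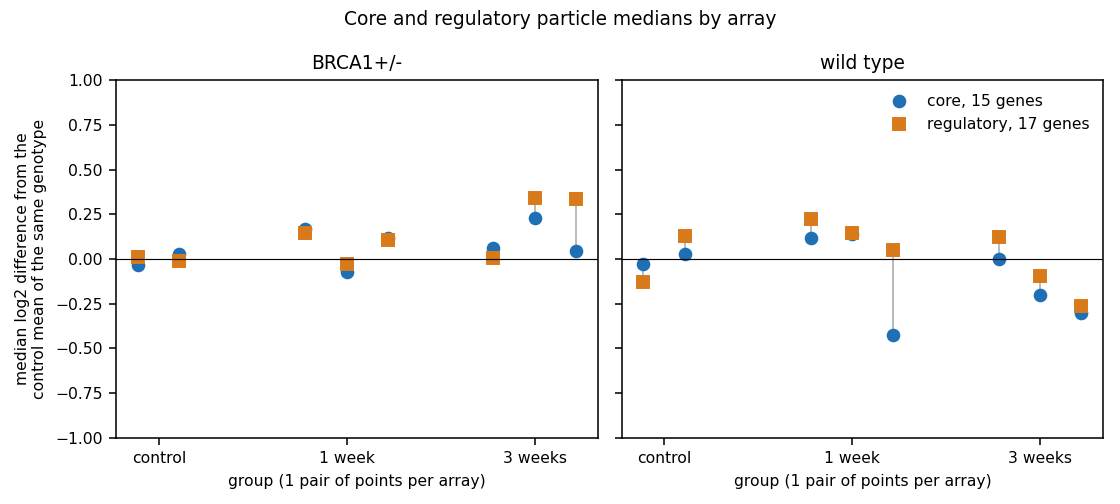
Median log2 shift of the 15 core and 17 regulatory particle genes on each array relative to the mean of the control arrays of its genotype (vertical axis), by group. Wild-type 1-week replicate 3 has a core shift of -0.43 and a regulatory shift of 0.05, the widest gap of the 16 arrays.

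The inducible counterparts of the catalytic subunits were called in all 4 comparisons. Psmb8 rose by 1.74 and 2.79 in BRCA1+/- and 2.99 and 2.86 in wild type at 1 and 3 weeks, Psmb9 by 1.26, 1.89, 2.60 and 2.00, and Psmb10 by 1.40, 2.25, 1.66 and 1.11, on the log2 scale. The difference of each pair's log2 levels was then fitted as an added feature, a choice made after seeing the data. For Psmb8 minus Psmb5 this difference lay at -0.06 to 1.93 on 12 treated arrays, against -2.25 to -1.33 on 4 control arrays. Psmb9 minus Psmb6 lay at -2.71 to -1.0, against -4.94 to -4.30 on control arrays. Psmb10 minus Psmb7 lay at 1.74 to 3.98, against 1.08 to 1.67. Treated and control arrays did not overlap in any of the 3 pairs. Only the shift is read, since the level of a difference depends on the brightness of its probes. The shift of Psmb8 over Psmb5 was 1.68 and 2.71 in BRCA1+/- and 3.55 and 3.07 in wild type, that of Psmb9 over Psmb6 1.76, 1.94, 3.24 and 2.17, and that of Psmb10 over Psmb7 1.49, 2.49, 1.32 and 1.51, with the largest limma adjusted p of the 12 at 0.0388. Macrophage markers were also above controls in all 4 comparisons, as given above. In wild type the macrophage ranges of 1 and 3 weeks overlapped. From 1 to 3 weeks Psmb8, Psmb9 and Psmb10 changed there by -0.14, -0.60 and -0.55, and none was called (limma adjusted p = 0.808, 0.109 and 0.248). The part of macrophages in these values was not tested.

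**Figure D5:**
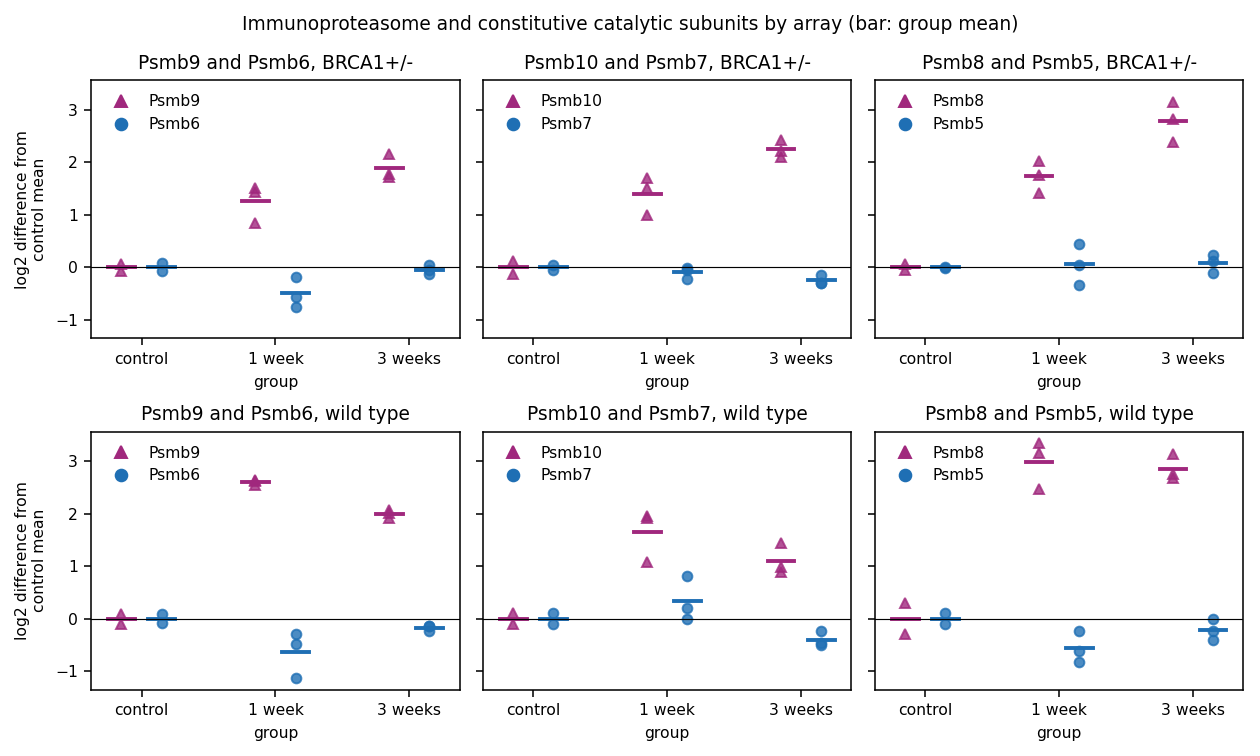
Log2 level of each immunoproteasome catalytic subunit and its constitutive counterpart, relative to each gene's control mean in that genotype (vertical axis). Arrays are shown by group and genotype, with the group mean as a bar, for Psmb8 and Psmb5, Psmb9 and Psmb6, and Psmb10 and Psmb7. The differences within pairs, in which treated and control arrays did not overlap, are not drawn.

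Of 40 other genes of the pathway that were tested, the 3 immunoproteasome subunits included, limma called 3 higher and 0 lower at 1 week and 4 higher and 0 lower at 3 weeks in BRCA1+/- rats, and 7 higher and 5 lower at 1 week and 4 higher and 2 lower at 3 weeks in wild type. These are 7.50%, 10.0%, 30.0% and 15% of the 40, beside 7.48%, 15.9%, 27.1% and 14.2% of all genes. The alternative cap subunit Psme2, an interferon-inducible activator of the core, rose by 1.15 ± 0.27 at 3 weeks in BRCA1+/- (limma adjusted p = 0.0109) and 1.13 ± 0.27 at 1 week in wild type (limma adjusted p = 0.00566), and its partner Psme1 by 1.06 ± 0.34 at 3 weeks in wild type (limma adjusted p = 0.049998). In wild type at 1 week the log2 change of the nuclear activator Psme3 was 1.20 ± 0.31 and that of the single-chain activator Psme4 was -1.40 ± 0.37 (limma adjusted p = 0.00955 and 0.0111). Of the regulators of subunit genes, Nfe2l2 changed by -1.12 ± 0.26 in wild type at 1 week (limma adjusted p = 0.00498) and Ngly1, the enzyme that processes NRF1, by -0.72 ± 0.25 (limma adjusted p = 0.0451). Nfe2l1 itself was not called, at -0.16 and 0.19 in BRCA1+/- and -0.54 and 0.31 in wild type. Its wild-type 1-week change was -0.02 without replicate 3. The shuttle factor Ubqln2 was called lower in wild type at both times (-0.90 and -1.06), as was Akirin2, known in human cells to carry proteasomes into the nucleus (-0.85 and -0.88). The other calls were Nploc4, a cofactor of p97, at 0.98 and Zfand2a, a stress-induced proteasome binder, at 1.02, both in wild type at 1 week. Among the 5 core assembly chaperones, the 2 further regulatory subunits Adrm1 and Sem1, and the 6 ubiquitin and E1 genes, 0 were called in any comparison with controls on all arrays. Without wild-type 1-week replicate 3, limma called 9 higher and 4 lower at 1 week in wild type: 11 of the 12 calls were kept, Ngly1 was lost (adjusted p = 0.0548), and Psme1 (1.00, adjusted p = 0.00754) and the E1 enzyme Uba1 (0.78, adjusted p = 0.0278) were added. From 1 to 3 weeks limma called 1 of the 40 in wild type, Usp14, the deubiquitinase bound to Psmd2, at -0.76 (adjusted p = 0.0459), and 0 in BRCA1+/-.

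Promoters were inspected because NRF1 and NRF2 are known to bind the antioxidant response element, whose core was searched as TGACNNNGC on both strands. RefSeq windows (rat build GRCr8, 250 bases before to 50 after each gene's start) were found for 32 of 38 members. The core motif was in 7 of 32 (21.9%), beside 12.2% of 27457 promoters of all genes: Psma3, Psmb2, Psmb5, Psmb6, Psmd1, Psmd3 and Psmd9. It was in 4 of 13 core (30.8%) and 2 of 14 regulatory promoters (14.3%). The CCAAT box, searched on both strands, was in 17 of 32 (53.1%) beside 37.7% of all, and in 9 of 13 core (69.2%) and 5 of 14 regulatory (35.7%) promoters. A match is a description of letters and not a site. The windows of Psmb5 and Psmb6, both catalytic and both below controls at 1 week in wild type without passing the test, and of Psmd1, a scaffold of the base with estimates above 0 in all 4 comparisons, are printed 5′ to 3′ along the gene's strand with the motif in capitals.
Psmb5, chr15:32047330-32047629, minus strand: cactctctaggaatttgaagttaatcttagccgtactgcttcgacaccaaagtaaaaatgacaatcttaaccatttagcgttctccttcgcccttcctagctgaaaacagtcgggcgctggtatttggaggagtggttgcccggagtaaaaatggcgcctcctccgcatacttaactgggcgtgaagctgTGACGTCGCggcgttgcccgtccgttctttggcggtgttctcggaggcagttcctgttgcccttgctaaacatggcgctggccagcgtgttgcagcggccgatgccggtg
Psmb6, chr10:55737638-55737937, plus strand: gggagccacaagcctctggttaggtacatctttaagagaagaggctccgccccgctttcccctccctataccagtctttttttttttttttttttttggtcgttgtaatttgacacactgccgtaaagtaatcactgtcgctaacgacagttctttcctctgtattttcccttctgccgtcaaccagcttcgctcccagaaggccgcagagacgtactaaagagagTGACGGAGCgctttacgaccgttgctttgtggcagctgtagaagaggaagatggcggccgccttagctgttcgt
Psmd1, chr9:94157721-94158020, plus strand: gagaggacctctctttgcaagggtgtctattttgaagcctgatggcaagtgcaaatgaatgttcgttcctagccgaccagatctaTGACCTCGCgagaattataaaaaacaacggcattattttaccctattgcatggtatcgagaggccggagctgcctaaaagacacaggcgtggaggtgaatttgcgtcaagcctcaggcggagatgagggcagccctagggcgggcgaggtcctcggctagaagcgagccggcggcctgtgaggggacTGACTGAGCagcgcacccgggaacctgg
Relative to the annotated start, the motif begins at -60 in Psmb5, at -24 in Psmb6, and at -165 and 23 in Psmd1. With all arrays the changes of the 7 members with the motif ranged from -0.84 to 0.59 over the 4 comparisons and none of them was called. Without wild-type 1-week replicate 3 the 1-week wild-type change of Psmd1 was 0.81 and was called (limma adjusted p = 0.0344).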

How the data were processed

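Total RNA was labelled with Cy3 and hybridised to 1 array per sample. Per the file headers, the deposited scanner files hold spot intensity values from Agilent Feature Extraction, version 10.7 per the submitters' processing notes: a processed signal from which background and a spatial trend were removed, with substitute values for dim spots and no scaling between arrays. The deposited table of processed values, made by the authors, is in log2 and matches the log2 processed signal minus each array's 75th percentile, a step recovered from the values and not stated in the sources used here.

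Of 62976 spots per array, 4259 control spots and spots marked as outliers were left out, and spots of a probe were averaged (45598 probes). The value used was log2 of the processed signal minus the array's 75th percentile over non-control probes. Accessions matched 21229 probes to the RefSeq gene table, which renamed 2233 of them, and members kept the array's name. Probes had to be detected (well above background) on all arrays of 1 or more groups (20431 probes), and the brightest kept probe stood for a gene (16007 genes). One linear model held all 16 arrays and gave each group its own mean (limma 3.58.1 under R 4.3.3, moderated with eBayes, 10 residual and 4.87 prior degrees of freedom, median residual SD 0.395), two-sided, Benjamini-Hochberg adjusted over all genes in each of 11 comparisons, called at an adjusted p under 0.05. The fit was tested on simulated data with independent normal noise for each gene and array. Those data held no array that stands apart and no background effect, so that test does not cover these. Numbers of arrays limit the precision; no spot was saturated.

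Per-array values are given for Psmb5, Psmb6, Psmb7, Psmd4, Psmd14 and Psmd11 and for the 3 core and 3 regulatory genes with the smallest p in each comparison with controls; in other comparisons members called are named. Per-array values of any further gene, such as Psmd9, were chosen after they were seen. Pathway genes are named where called. Members and lists were chosen with earlier results of these data known. The alternatives were the normexp background correction (offset 50), quantile normalization, the deposited log2 values, no filter on dim probes, dim values set to a detection limit of -1.05, the mean over a gene's probes, only the groups compared, slide as a block and within each of 2 slides, a replicate block, and leaving out each array. Testing each probe alone and the immunoproteasome pairs were added after seeing the data. Promoters are from RefSeq. Figures were drawn with matplotlib 3.10.9.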

Additional observations from a re-analysis of the deposited data

How the results depend on the processing

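The counts of members called were 1 and 2 in wild type at 1 and 3 weeks, 0 at 3 weeks in BRCA1+/- and 2 for 3 weeks against 1 week in wild type. At 1 week in wild type the count became 5 with the normexp correction, 3 with quantile normalization, 3 with dim values at the detection limit, 3 with the mean over a gene's probes, 2 with every probe tested on its own, and 0 with no filter on dim probes, with only the groups compared, and within slide 1 or slide 2. At 3 weeks in wild type it became 3 with dim values at the limit, with only the groups compared and with every probe on its own, 1 with slide as a block and 0 with normexp, quantile normalization, no filter, and within either slide. At 3 weeks in BRCA1+/- it became 1 with dim values at the limit (Psmd12), the mean over probes (Psmd11), only the groups compared (Psma5) and every probe on its own (Psmd11). For 3 weeks against 1 week in wild type it became 5 with dim values at the limit, 3 with the mean over probes, 1 with normexp, and 0 with no filter, with only the groups compared, and within either slide. The fits within a slide hold 1 or 2 arrays per group and also lowered the count over all genes, in wild type at 1 week to 1084 and 214, against 4341 with all arrays. That count was 1704 with normexp, 2656 with no filter and 1754 with only the groups compared.

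Leaving out 1 array at a time gave 0 to 4 members called at 1 week in wild type (4 without replicate 2 of the 1-week group, 3 without its replicate 1 or 3, 0 without control replicate 1), 0 at 3 weeks in wild type whichever array was left out, 0 to 4 for 3 weeks against 1 week in wild type (0 without any 1 of the 3-week arrays, 4 without replicate 2 of the 1-week group), and 0 in the other comparisons. The core median minus the regulatory median at 1 week in wild type, 0.02 with all arrays, was -0.15 with normexp, -0.17 with quantile normalization and -0.13 with the mean over probes, and ranged from -0.15 to 0.072 when 1 array was left out. For 3 weeks against 1 week in wild type it was -0.17 within slide 2 and ranged from -0.070 to 0.17. The only called member value that changed sign was Psmd12 at 3 weeks in wild type, 0.011 with normexp (limma adjusted p = 0.979). Of the values of single members under the alternatives, 6734 kept their side of the threshold, uncalled values that changed sign among them, 41 lost a call and 28 gained one. The causes were not tested.

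Nothing in the sources used here says that replicate numbers in the titles pair the arrays. Over 36 same-number pairs the correlation of deviations from group means ran from -0.34 to 0.44, and 8 were over 0.1. These values do not settle the pairing, since pairs of different numbers were not compared and deviations within groups of 2 arrays mirror each other. With a replicate block the count at 3 weeks in wild type was 1, and the core minus regulatory median at 3 weeks in BRCA1+/- was 0.016, against -0.13 without it. The block moved no other count of members called.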
